A study of Mus musculus with 18 samples.

Results

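In mouse liver, 11689 windows of 10 kb on chromosomes 1 to 19 carried H3K9me3 in young animals, lay outside every young lamin B1 domain and fell inside a lamin B1 domain in old animals. These member windows were chosen by 3 lists of called regions: each window lay inside a young H3K9me3 region and an old lamin B1 domain and inside no young lamin B1 domain. They made up 4.75% of the 246266 windows of these chromosomes, or 116.89 Mb, and joined into 910 runs of adjacent windows. The old H3K9me3 list was not used in the choice, and it still covered 9907 of the 11689 members and was absent from 1782.

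The study profiled mouse livers by chromatin immunoprecipitation and sequencing. Lamin B1 and H3K9me3 were mapped in 3-month-old (young) and 21-month-old (old) wild-type C57BL/6 males, each antibody at each age having 2 replicates. The pioneer factor Foxa2 was mapped at 12 weeks in male mice lacking Zmpste24 (Zmpste24 KO) and in wild-type littermates, with 3 replicates for each genotype. No Foxa2 list of the 21-month-old animals entered these comparisons. The study's methods name no strain for the Foxa2 mice. Whole livers were used, and in such bulk tissue a domain held by fewer cells and a weaker domain in each cell cannot be told apart. The deposited lists give positions only, from reads merged over replicates, so they carry no replicate spread and no score. The values are therefore descriptions without a test, and each interval covers counting error only, with neighbouring windows sharing their domains.

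Lamin B1 is a filament protein under the inner nuclear membrane, and the chromatin that it contacts forms lamina-associated domains, which in most cell types studied are poor in genes, rich in A and T bases and transcribed at a low level. Trimethylation of histone H3 at lysine 9 (H3K9me3) marks constitutive heterochromatin, including repeats, zinc finger gene clusters and the silent allele of imprinted loci. Foxa2 is a forkhead factor that opens closed chromatin at hepatocyte enhancers, and Zmpste24 is the protease that matures prelamin A.

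The lamin B1 lists did not show the composition usual for such domains. Protein-coding start sites lay in young lamin B1 domains for 7905 of 20807 genes (38.0%) and in old domains for 13663 (65.7%). Of all 246266 windows, 81.1% lay outside young domains and 93025 lay inside old ones. Starts were thus over-represented at both ages. The old list was also the larger, with 930 Mb against 466 Mb, so the rise in starts is not a change in composition alone. Gene families differed widely. Starts lay in old domains for 69 of 75 ribosomal protein genes, 39 of 39 Hox genes and 52 of 53 keratin genes. The counts were 0 of 327 for vomeronasal receptor genes, 1 of 22 for major urinary protein genes and 0 of 54 for Hist1h histone genes. These families did not divide by whether liver uses them. The term domain here therefore means a region on the deposited list, and nothing further about its position at the nuclear edge.

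Foxa2 sites called in both genotypes show where a hepatocyte factor was mapped inside the members. Of 57 Zmpste24 KO sites in members that overlapped a wild-type site, 24 held the forkhead core TGTTTAC, read on both strands, in the 200 bases at the middle of the overlap (42.1%, against 28.3% of all 1353 shared sites). Over whole sites the difference was smaller, with the core in 28 of the 57 (49.1%) and in 42.6% of all shared sites. Sequences to print were not sought on every chromosome. The 4 shown are the first, by run length, of those sought that overlap no exon. They are given for the plus strand of GRCm38.p6, with the core or its reverse complement in capitals.
Arid5b intron, chr10:68136636-68136835: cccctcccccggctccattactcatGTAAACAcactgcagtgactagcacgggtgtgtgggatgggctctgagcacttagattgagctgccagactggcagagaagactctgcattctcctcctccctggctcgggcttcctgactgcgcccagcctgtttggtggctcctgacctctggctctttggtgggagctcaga
Arid5b intron, chr10:68219330-68219529: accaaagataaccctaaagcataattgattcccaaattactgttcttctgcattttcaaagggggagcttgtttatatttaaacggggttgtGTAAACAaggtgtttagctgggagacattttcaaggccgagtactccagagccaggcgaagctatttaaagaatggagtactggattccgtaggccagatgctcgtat
Maml3 intron, chr3:51978110-51978309: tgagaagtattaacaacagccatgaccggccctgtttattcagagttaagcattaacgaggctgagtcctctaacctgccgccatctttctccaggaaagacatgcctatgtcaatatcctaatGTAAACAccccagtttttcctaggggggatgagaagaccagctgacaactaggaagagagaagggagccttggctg
Between protein-coding genes, chr8:34456619-34456818: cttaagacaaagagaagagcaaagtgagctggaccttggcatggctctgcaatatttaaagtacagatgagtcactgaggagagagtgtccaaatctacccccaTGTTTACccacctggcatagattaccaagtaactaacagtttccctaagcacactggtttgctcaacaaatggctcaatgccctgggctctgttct
Both Arid5b windows had lost H3K9me3 in old liver, whereas the windows of the Maml3 site and of the chromosome 8 site had kept it. Each stretch held 1 match, and a match is a description of the letters and not of binding. Arid5b encodes a DNA-binding protein of the ARID family, and Maml3 a coactivator of Notch signalling.

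Promoters of 4 genes are printed as examples of gene starts inside the members. The 4 genes were picked by name and do not show the range of base composition at member starts. RefSeq promoters (GRCm38.p6, 250 bases before to 50 after a start) were found for 545 of the 744 protein-coding genes that start in a member window. CpG, searched as CG, is in capitals; 94.6% of the 32851 promoters in the table held at least 1, and the median was 7. Igf2r and Grb10 are imprinted genes that kept H3K9me3 at their start, while Ppara, the fatty acid sensor of liver, and Cyp2e1, an abundant P450 of hepatocytes, did not. The mark was kept at 8 of 9 imprinted starts in members and at 7 of 9 P450 starts, so Cyp2e1 does not stand for its group. Over all 744 protein-coding starts in members it was kept at 579 (77.8%).
Igf2r, chr17:12769657-12769956, minus strand, 34 CpG: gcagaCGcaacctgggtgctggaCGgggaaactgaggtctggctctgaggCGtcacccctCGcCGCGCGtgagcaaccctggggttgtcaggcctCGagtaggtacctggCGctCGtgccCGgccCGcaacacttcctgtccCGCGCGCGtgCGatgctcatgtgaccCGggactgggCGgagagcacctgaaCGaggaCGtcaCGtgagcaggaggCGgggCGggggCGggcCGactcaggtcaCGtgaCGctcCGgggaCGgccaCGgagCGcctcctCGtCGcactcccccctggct
Grb10, chr11:12037371-12037670, minus strand, 45 CpG: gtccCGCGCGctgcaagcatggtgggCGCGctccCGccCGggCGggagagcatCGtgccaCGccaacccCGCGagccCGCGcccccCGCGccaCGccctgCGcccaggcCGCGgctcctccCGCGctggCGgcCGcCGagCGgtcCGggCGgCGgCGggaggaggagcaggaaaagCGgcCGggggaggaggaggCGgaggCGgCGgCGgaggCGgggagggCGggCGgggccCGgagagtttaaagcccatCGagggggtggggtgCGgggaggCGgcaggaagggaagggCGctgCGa
Ppara, chr15:85735526-85735825, plus strand, 30 CpG: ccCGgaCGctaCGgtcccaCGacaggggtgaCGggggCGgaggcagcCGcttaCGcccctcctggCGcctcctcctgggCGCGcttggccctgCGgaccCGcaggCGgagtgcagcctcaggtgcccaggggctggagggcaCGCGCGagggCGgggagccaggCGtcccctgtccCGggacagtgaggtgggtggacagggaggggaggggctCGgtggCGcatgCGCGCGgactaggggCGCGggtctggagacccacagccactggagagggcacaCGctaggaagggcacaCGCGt
Cyp2e1, chr7:140763569-140763868, plus strand, 4 CpG: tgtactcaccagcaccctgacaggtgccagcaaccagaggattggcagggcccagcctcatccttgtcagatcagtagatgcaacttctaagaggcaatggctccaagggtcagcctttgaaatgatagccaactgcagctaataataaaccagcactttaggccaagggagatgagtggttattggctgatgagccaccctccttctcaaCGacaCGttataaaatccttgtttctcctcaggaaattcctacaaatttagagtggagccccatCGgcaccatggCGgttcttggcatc
The printed Igf2r and Cyp2e1 promoters started 42 and 80 bases from the GENCODE start used for the counts, and those of Grb10 and Ppara 1263 and 793 bases from it. All 4 lay in the same runs of members as the start.

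The share of H3K9me3 windows that entered a lamin B1 domain was somewhat below that of all windows. Of 46328 young H3K9me3 windows outside young lamin B1, 25.2% lay in old lamin B1 (95% Wilson interval 24.8 to 25.6), against 30% of all 199649 windows outside young lamin B1. Windows without young H3K9me3 reached 31.4% (31.2 to 31.6). These shares were fixed by the rule and are given as a description. Members formed 19.5% of the 59833 windows that gained lamin B1 and 20.3% of the 57556 young H3K9me3 windows.

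H3K9me3 was kept far more often in members than in young H3K9me3 windows that stayed outside lamin B1. Old H3K9me3 covered 84.8% of members (84.1 to 85.4), against 42.3% of all young H3K9me3 windows. In the 34639 young H3K9me3 windows without lamin B1 at either age it covered 24.3% (23.8 to 24.7). The share was 72.4% in the 6454 windows with lamin B1 at both ages and 28.6% in the 4774 that had lost lamin B1. The mark was thus listed again in most windows of both classes that lay in old lamin B1, and in fewer than 3 in 10 windows of both classes that did not.

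Windows without young H3K9me3, which are not members, give the share of newly listed H3K9me3 for comparison. Of the 48144 that gained lamin B1, 43.1% carried the mark in old liver, compared with 8.38% of the 105177 without lamin B1 at either age. The H3K9me3 lists hold 2784 regions for young and 2496 for old liver. That is fewer regions than the study describes for the mark, and how the deposited ones were selected is not given in the sources used here. A window outside a list may therefore lie in an H3K9me3 region that the list leaves out, so kept and lost mean on or off the deposited lists.

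**Figure D1:**
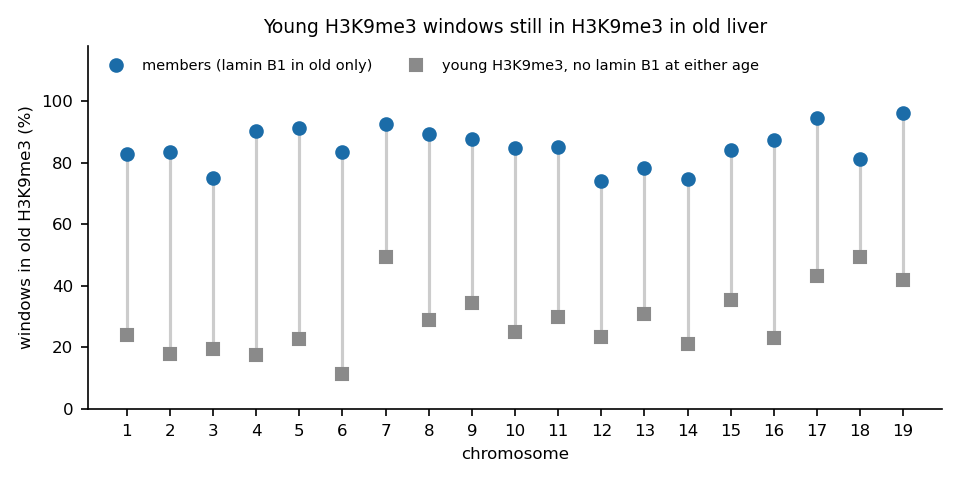
Percentage of young H3K9me3 windows that lay in old H3K9me3 (y axis) for each of chromosomes 1 to 19 (x axis), for members (blue circles) and for windows without lamin B1 at either age (grey squares); grey lines join the values of a chromosome and there are no error bars. Members range from 74.1% to 96.1% and lie above the grey squares on 19 of 19 chromosomes.

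Every autosome showed the higher share in members. Kept H3K9me3 ranged from 74.1% of members on chromosome 12 to 96.1% on chromosome 19, and in windows without lamin B1 from 11.2% on chromosome 6 to 49.4% on chromosome 18. The share of H3K9me3 windows that entered old lamin B1 varied more, from 15.2% on chromosome 1 to 70.3% on chromosome 19. It exceeded the share of all windows outside young lamin B1 on 8 of 19 chromosomes.

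Base composition moved with both results. GC content averaged 45.1% ± 2.86 (SD over windows) in members, 46.05% ± 3.44 in windows that gained lamin B1 without young H3K9me3, and 38.7% ± 2.64 in young H3K9me3 windows without lamin B1. A GC content of at least 42% was found in 87.6% of members and in 11.4% of H3K9me3 windows without lamin B1. Windows with lamin B1 and H3K9me3 at both ages had 45.1% ± 3.11, the mean of members. Members thus had a GC content near that of the other windows in old lamin B1 and above that of H3K9me3 windows without lamin B1.

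**Figure D2:**
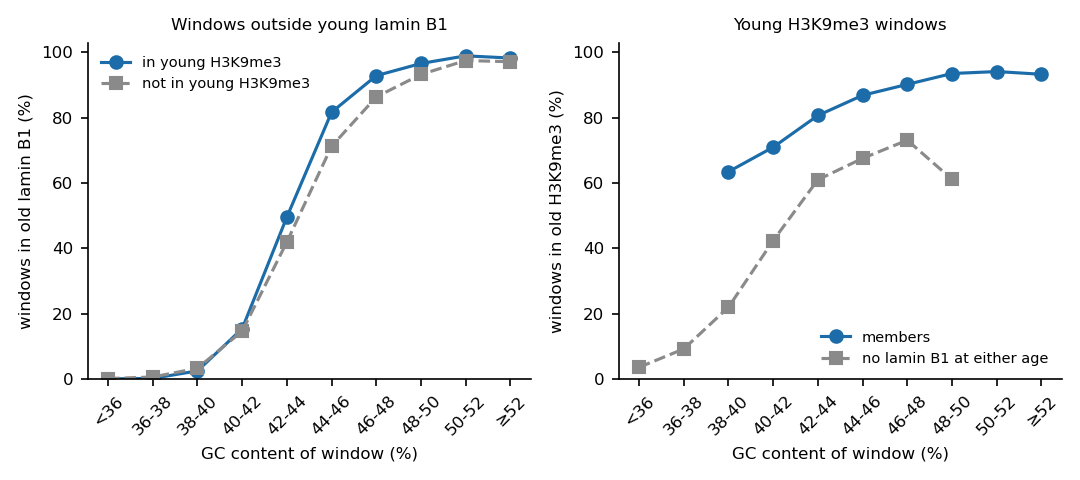
Left, percentage of windows outside young lamin B1 that lay in old lamin B1, in bands of GC content (x axis), for windows in young H3K9me3 (blue circles) and not in it (grey squares). Right, percentage of young H3K9me3 windows that lay in old H3K9me3, for members (blue circles) and windows without lamin B1 (grey squares); bands with under 20 windows are left out, there are no error bars, and on the left both lines climb from near 0 to above 97%.

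Within bands of GC content the order of the shares that entered lamin B1 turned. At 42 to 44% GC, 49.6% of H3K9me3 windows and 41.95% of windows without the mark lay in old lamin B1. At 44 to 46% GC the shares were 81.7% and 71.2%, and at 46 to 48% GC they were 92.9% and 86.3%. From 40% GC upward H3K9me3 windows had the higher share in each band, and below 40% the lower one, whereas over all windows they had the lower share. The comparison over all windows thus joins sets of different base composition.

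The gap in kept H3K9me3 was smaller within bands but present in each of the 6 bands with at least 20 windows in both sets. Over all windows members exceeded H3K9me3 windows without lamin B1 by 60.5 percentage points, and within bands by 17.1 to 41.5 points. At 42 to 44% GC the mark was kept in 80.7% of 2917 members and in 61.0% of 2964 windows without lamin B1. At 44 to 46% GC the values were 86.8% of 3403 members and 67.5% of 764 windows. The kept share rose with GC content in members from 63.5% at 38 to 40% GC to 93.5% at 48 to 50% GC. The part that base composition has in these shares was not tested.

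Runs of members ended more often at an edge of the mark than at an edge of lamin B1. The median run was 90 kb (quartiles 50 and 160 kb, longest 1280 kb), and 51 of the 910 runs were a single window. A total of 76 runs reached 300 kb and held 3482 windows, or 29.8% of the members. Of the 1820 run ends, 1033 (56.8%) were edges of young H3K9me3 inside old lamin B1, 348 (19.1%) were edges of old lamin B1 inside young H3K9me3, 380 (20.9%) met a young lamin B1 domain, and at 59 (3.24%) the edges of both fell together.

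Most runs lay wholly inside or wholly outside old H3K9me3. The median run of 90 kb was shorter than the median old H3K9me3 region of 160 kb, and the 51 runs of a single window could not be partly covered. These counts therefore do not show that runs kept or lost the mark as units. Old H3K9me3 covered 606 runs wholly (66.6%) and 181 partly, and was absent from 123 (13.5%). The median length was 90 kb for wholly covered runs, 130 kb for partly covered runs and 50 kb for runs without the mark. Longer runs have more windows in which a gap can fall, so these lengths are not independent of the classes.

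**Figure D3:**
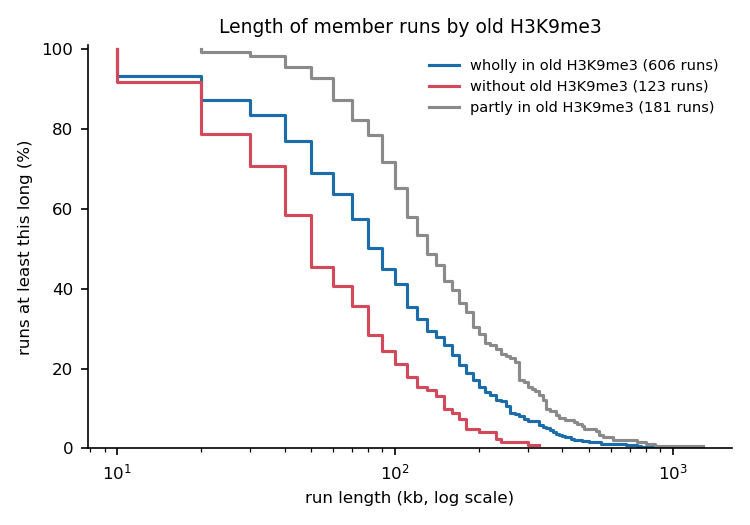
Percentage of runs (y axis) at least as long as the length on the x axis (kb, log scale), for 606 runs wholly in old H3K9me3 (blue), 123 runs without it (red) and 181 partly in it (grey). Runs without old H3K9me3 lie lowest along most of the axis, with a median of 50 kb, and partly covered runs lie highest, with a median of 130 kb.

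Members came from 844 of the 2781 young H3K9me3 regions (30.3%). In 350 of these regions every window was a member, with a median length of 120 kb, and in 494 only some windows were, with a median of 190 kb. Regions without a member had a median of 150 kb. Among the 350 regions taken up whole, 247 were wholly in old H3K9me3 and 31 had none.

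Members lay both next to and far from young lamin B1. The median distance to the nearest young domain was 270 kb (quartiles 100 and 700 kb), compared with 390 kb for windows that gained lamin B1 without young H3K9me3 and 590 kb for H3K9me3 windows without lamin B1. A young domain bordered 333 runs (36.6%). Old domains that also overlapped a young domain held 7716 members (66.0%), against 60.9% of all windows that gained lamin B1. The other 3973 members lay in old domains that overlapped no young domain. In all, 601 of 1517 old domains held members, with a median length of 620 kb, against 260 kb for those without. The old domain with the most members, chr12:105160001-109150000, had 251 members in 3990 kb, of which 630 kb were young lamin B1.

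The longest runs are shown in detail because they hold the most members and few genes. The longest, chr3:152630001-153910000, began at the edge of a young lamin B1 domain and ran for 1280 kb over the starts of Ak5, Pigk, St6galnac5, St6galnac3, Asb17 and Msh4. Ak5 encodes an adenylate kinase, Pigk a subunit of the enzyme that attaches lipid anchors to proteins, the St6galnac genes sialyltransferases, and Msh4 a meiotic recombination protein. Old H3K9me3 covered 122 of its 128 windows. Foxa2 sites numbered 0 in wild type and 3 in Zmpste24 KO.

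The second run, chr8:117990001-119040000, was 1050 kb long and was a whole young H3K9me3 region. It held the start of Cdh13, a cadherin without a transmembrane segment, and 76 of the 105 windows of that gene were members. All 105 windows of the run kept H3K9me3, which made it the longest run wholly in the old mark. The third run, chr4:152610001-153550000, was 940 kb long, held Ajap1, a junction-associated membrane protein, and was likewise kept in all 94 windows.

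Runs that lost part of the mark included well-studied regulatory genes. In the 860 kb run chr8:46630001-47490000, with Irf2, an interferon regulatory factor, Enpp6 and Stox2, old H3K9me3 covered 68 of 86 windows, and the Irf2 start was not among them. In the 800 kb run chr10:67430001-68230000, with Egr2, a zinc finger factor of immune and Schwann cells, Ado, Zfp365 and Rtkn2, it covered 61 of 80 windows. All of these starts, that of Egr2 included, kept the mark. The missing windows there lay mainly over Arid5b, where the printed Arid5b sites lie. The 740 kb run chr1:178850001-179590000, with Smyd3, a SET-domain methyltransferase, Tfb2m and Cnst, kept 59 of 74, and none of these starts kept the mark.

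The remaining runs among the 10 longest kept the mark in every window. They were chr10:119450001-120220000 (770 kb, with Grip1, Helb, Tmbim4 and Irak3), chr12:106520001-107290000 (770 kb, without a protein-coding start), chr12:107330001-108070000 (740 kb, with 3110018I06Rik and Bcl11b) and chr2:168890001-169570000 (680 kb, with Zfp64). Bcl11b encodes a factor of T cell development and Irak3 an inhibitor of Toll-like receptor signalling. The longest run without any old H3K9me3 was chr18:11740001-12070000, 330 kb long, with the start of Cables1, which encodes a binding partner of cyclin-dependent kinases.

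**Figure D4:**
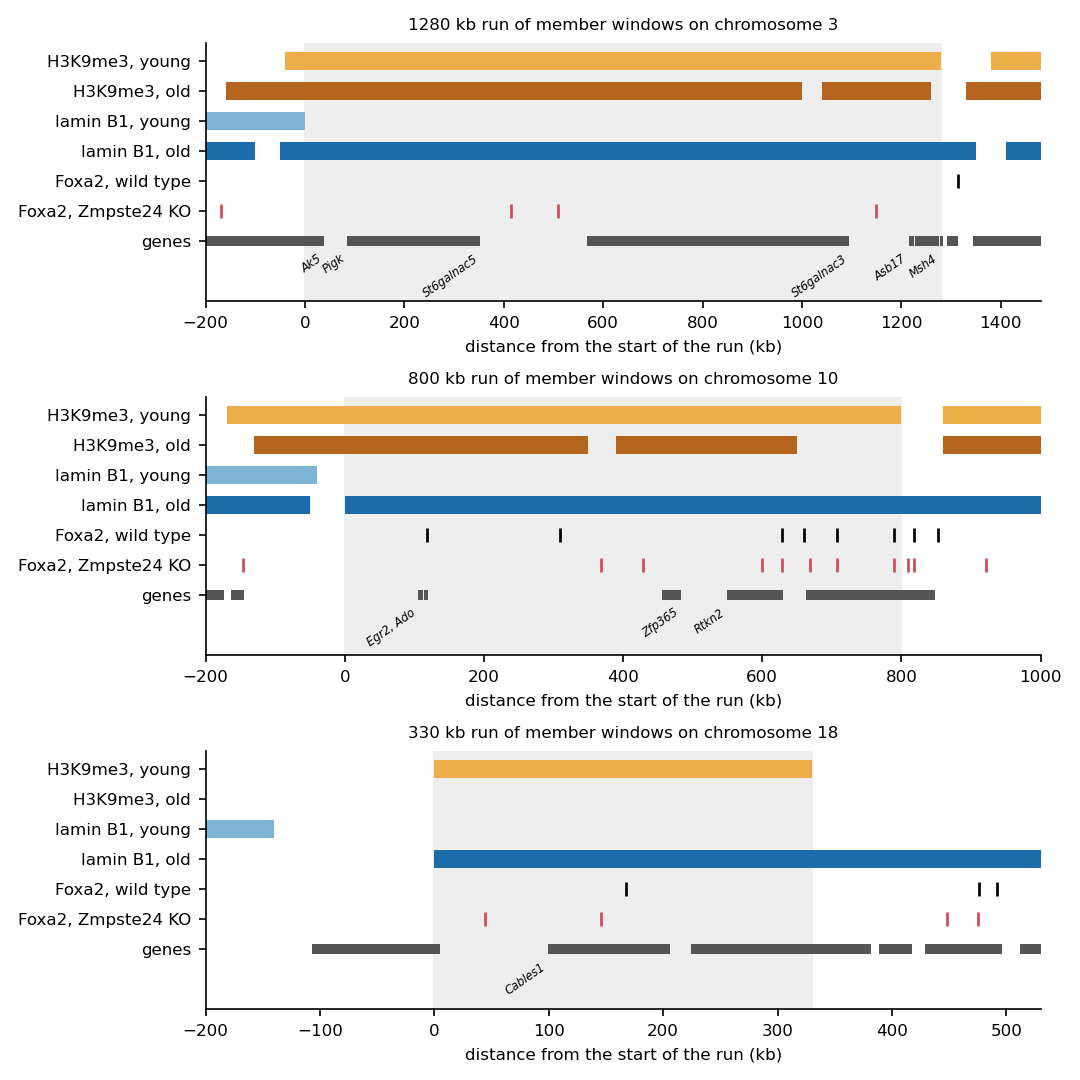
Called regions along 3 runs of members (grey shading) and 200 kb on each side, against distance from the run start (kb): bars show H3K9me3 and lamin B1 regions at each age and protein-coding genes, ticks show midpoints of Foxa2 sites, and names mark genes that start in the run. Young H3K9me3 and old lamin B1 fill each shaded run, young lamin B1 ends at or before its start, and old H3K9me3 is interrupted in the 1280 kb and 800 kb runs and absent in the 330 kb run.

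Large genes filled several runs. After Cdh13, the genes with the most member windows were Wwox, a WW-domain oxidoreductase gene spanning a fragile site, with 72, Grip1 with 64, Rbms3 with 63, Smyd3 with 57, St6galnac3 with 54 and Tmem132d with 50. All windows of Grip1, Smyd3 and St6galnac3 were members. The mark was kept in all 76 Cdh13 members, 71 of the Wwox members and 49 of the Smyd3 members.

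Repeat and gene content also differed between the sets. Soft-masked repeats made up 26.7% ± 11.8 of the bases in members, 24.96% ± 11.9 in windows that gained lamin B1 without the mark and 38.5% ± 18.1 in H3K9me3 windows without lamin B1. CpG density was 11.3 ± 4.21 per kb in members, 11.3 ± 4.44 in the other gained windows and 5.90 ± 2.99 in H3K9me3 windows without lamin B1 (SD over windows). In gene content members lay between these sets, with 6.37 protein-coding starts per Mb, against 12.4 in the other gained windows, 3.14 in H3K9me3 windows without lamin B1 and 8.45 over all windows. Members that lost H3K9me3 had more starts (9.26 per Mb) than members that kept it (5.84 per Mb).

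Protein-coding genes started in members at 744 of 20807 loci, which is 3.58% of genes. Of these starts, 579 (77.8%) kept H3K9me3 and 165 did not. A further set of genes reached into members from outside, so that 1090 genes overlapped a member window, and 499 lay wholly in members. Among the 1833 genes that started in young H3K9me3 outside young lamin B1, 744 (40.6%) were in members, and each group below is read beside these shares of 3.58% and 40.6%.

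Imprinted genes, which are expressed from a single parental allele, were found in members at 9 of 44 starts. These were all 9 of the imprinted starts that lay in young H3K9me3 outside young lamin B1. Old H3K9me3 remained at 8 of them: Cdkn1c, a cyclin-dependent kinase inhibitor; Gnas, the stimulatory G protein alpha subunit; Grb10, an adaptor that restrains insulin receptor signalling; Igf2r, the scavenging receptor for Igf2; Mest; Slc22a2, an organic cation transporter; and the divergent neighbours Peg10 and Sgce. Kcnk9, a potassium channel gene, was the start without it. Peg10 and Sgce share a window and Igf2r and Slc22a2 lie in the same imprinted cluster, so the 9 are not separate observations. The 9 starts lay in windows of 44.5 to 56.1% GC. At 44 to 46% GC, 81.7% of all young H3K9me3 windows outside young lamin B1 entered old lamin B1. In each higher band the share was larger.

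C2H2 zinc finger genes of the Zfp series, many of which encode repressors that recruit H3K9 methylation to transposons, started in members at 43 of 417 loci. Of 100 Zfp starts in young H3K9me3 outside young lamin B1, these 43 had entered old lamin B1, close to the 40.6% of all genes. Old H3K9me3 remained at 40 of the 43. They lay in clusters, with Zfp114, Zfp111, Zfp109, Zfp108, Zfp93, Zfp61 and Zfp94 in a 210 kb run (chr7:24150001-24360000) and Zfp354c, Zfp879, Zfp454, Zfp2 and Zfp354b in a 230 kb run (chr11:50770001-51000000). Both runs were wholly kept. The Zfp starts in longer runs than these were Zfp365 (800 kb), Zfp64 (680 kb) and Zfp827 (470 kb).

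Several clustered families had marked starts of which few or none were members. Olfactory receptor genes started in young H3K9me3 outside young lamin B1 at 273 of 1128 loci, and 8 of the 273 were members, all with the mark kept. Vomeronasal receptor genes had 43 such starts of 327, and none entered old lamin B1. Clustered protocadherin genes, which encode neuronal adhesion proteins, had 34 of 57, and none was a member, nor was any of the 6 such starts of 54 Hist1h histone genes. The 8 olfactory starts lay in windows of 41.4 to 44.8% GC.

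P450 genes and genes of lipid synthesis and use appeared in members in small numbers. Cytochrome P450 genes were in members at 9 of 98 starts, and at 9 of the 18 that lay in young H3K9me3 outside young lamin B1. The mark was kept at Cyp24a1, which inactivates vitamin D, Cyp21a1, a steroid 21-hydroxylase, Cyp2u1, Cyp2d26, Cyp2d40, Cyp4f15 and Cyp4f40, and was absent in old liver at Cyp2e1 and Cyp2d9. Ppara was the member among 14 PPAR and RXR genes, and its 110 kb run (chr15:85720001-85830000) kept the mark in 3 of 11 windows. Of 29 genes of fatty acid oxidation and ketogenesis, Hadh, a mitochondrial dehydrogenase, and Bdh1, which makes and uses ketone bodies, were members with the mark kept. Scd2, a desaturase, was the member among 23 lipogenesis genes and kept the mark.

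In 2 gene clusters every member start had lost H3K9me3. Serpina3j, Serpina3k and Serpina3m, liver-type protease inhibitor genes, lay in an 80 kb run (chr12:104270001-104350000) with no old H3K9me3, and Serpina3k and Serpina3m share an annotated start. The beta-defensin genes Defb30, Defb42, Defb43, Defb47 and Defb48 lay in a 70 kb run and had no old H3K9me3 at their starts. Each cluster is a single run, so the 3 of 60 serpin starts and the 5 of 64 defensin starts count as 1 region each.

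Keratin and collagen genes had shares above the 3.58% of all genes, on small counts. Keratin genes, which encode intermediate filaments of epithelia, were in members at 4 of 53 starts (7.55%), and these were all 4 keratin starts in young H3K9me3 outside young lamin B1. They were Krt9, Krt14, Krt16 and Krt19, in 1 run. Of all 53 keratin starts, marked or not, 52 lay in old lamin B1. Collagen genes were in members at 3 of 43 starts (6.98%), Col6a4, Col6a5 and Col13a1. These were 3 of 7 such marked starts, close to the 40.6% of all genes, and Col6a4 and Col6a5 lay in 1 run. Single members were Rpl34 of 75 ribosomal protein genes (2 marked starts), Hoxb13 of 39 Hox genes (1), Slco5a1 of 62 transporter genes (4) and Sult5a1 of 70 phase II enzyme genes (11). All of these kept H3K9me3.

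Several lists could hold no member, because none of their genes started in young H3K9me3 outside young lamin B1. These were 16 hepatocyte transcription factors, 24 lipid droplet genes, 16 lamina genes, 19 H3K9 methylation genes and 19 apolipoprotein genes. Of the hepatocyte factors, 12 started in young lamin B1. Of 10 bile acid and xenobiotic receptors 1 had such a marked start, and of 22 major urinary protein genes 2 had one, and none of these was a member. At 3.58%, lists of these sizes would hold less than 1 member each.

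Foxa2 sites were about as dense in members as over all windows, denser than over all windows outside young lamin B1, and not even among members. A wild-type site midpoint fell in 246 members (2.10%), against 1.91% of all windows, and a Zmpste24 KO site in 397 members (3.40%), against 3.16% of all windows. Members held 253 wild-type sites, or 2.16 per Mb (95% Poisson interval 1.91 to 2.45), and 406 Zmpste24 KO sites, or 3.47 per Mb (3.14 to 3.83). All windows outside young lamin B1, from which members come, held 1.58 wild-type (1.53 to 1.64) and 2.89 Zmpste24 KO sites per Mb (2.81 to 2.96). Young H3K9me3 windows without lamin B1 at either age held 0.964 and 2.48. The ratio of the site densities, Zmpste24 KO over wild type, was 1.60 in members and 1.64 over all windows, and the Zmpste24 KO list was the longer one (8051 against 4912 sites).

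Foxa2 sites of 12-week-old liver were denser in members without old H3K9me3 than in members with it. In the 1782 members without old H3K9me3 there were 4.21 wild-type sites per Mb (3.31 to 5.28), against 1.80 (1.54 to 2.08) in the 9907 that kept it. For Zmpste24 KO the densities were 5.33 (4.31 to 6.52) and 3.14 (2.80 to 3.51). Over all windows the densities were 1.99 wild-type and 3.27 Zmpste24 KO sites per Mb. The intervals cover counting error only, and neighbouring windows share runs, so the contrast between kept and lost members was not tested.

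This contrast was not limited to members. Among windows that gained lamin B1 without young H3K9me3, those without the mark at either age held 3.95 wild-type sites per Mb (3.72 to 4.19), and those that gained the mark held 1.62 (1.45 to 1.80). The Zmpste24 KO densities of these sets were 4.77 (4.52 to 5.04) and 2.66 (2.45 to 2.89). In young H3K9me3 windows without lamin B1 the densities differed less, with 1.15 wild-type sites per Mb (0.936 to 1.41) where the mark was kept and 0.903 (0.792 to 1.03) where it was lost. The Zmpste24 KO values there were 2.44 (2.12 to 2.80) and 2.49 (2.31 to 2.69). Windows with lamin B1 and H3K9me3 at both ages kept the mark and yet held 4.24 wild-type (3.67 to 4.87) and 5.37 Zmpste24 KO sites per Mb (4.73 to 6.08), about as many as members that lost it.

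**Figure D5:**
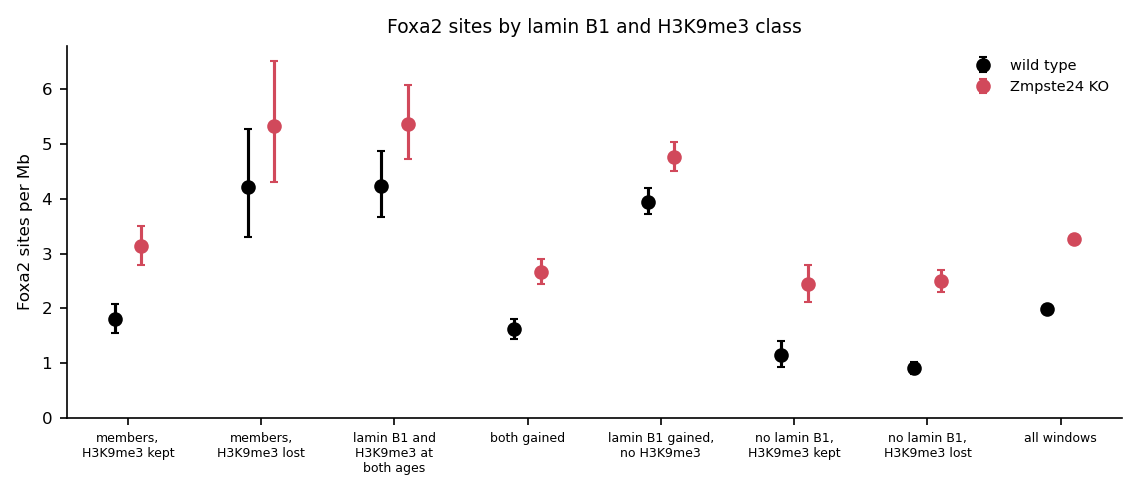
Foxa2 sites per Mb (y axis) in wild type (black) and Zmpste24 KO (red) at 12 weeks for members that kept or lost H3K9me3, windows with both at both ages, windows that gained both, windows that gained lamin B1 with no H3K9me3 at either age, young H3K9me3 windows without lamin B1 that kept or lost the mark, and all windows, with 95% Poisson intervals of the counts. Members without old H3K9me3 (4.21 and 5.33 sites per Mb) lie beside windows with lamin B1 and H3K9me3 at both ages (4.24 and 5.37) and above members that kept the mark.

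The order held in each of 5 bands of GC content from 40% upward, in both genotypes, although most intervals overlapped, the wild-type intervals at 40 to 44% and 46 to 48% GC being the exceptions. At 42 to 44% GC, wild-type sites numbered 3.72 per Mb (2.30 to 5.69) in members without old H3K9me3 and 0.935 (0.586 to 1.42) in members with it. At 44 to 46% GC the values were 3.57 (2.04 to 5.80) and 2.34 (1.82 to 2.96). Gene starts were also denser in members without the mark, and their part in the Foxa2 densities was not tested.

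Most Foxa2 sites in members were called in a single genotype. Of 253 wild-type sites, 56 (22.1%) overlapped a Zmpste24 KO site, compared with 27.3% of all wild-type sites on these chromosomes. Of 406 Zmpste24 KO sites, 57 (14.0%) overlapped a wild-type site, compared with 16.8% of all. In members that had lost H3K9me3 the shared parts were 28.0% and 23.2%, and in those that kept it 19.7% and 11.3%. Sites of either genotype fell in 347 runs, and 563 runs had none.

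The runs with the most Foxa2 sites were the 800 kb run with Egr2 (6 wild-type and 7 Zmpste24 KO sites) and the 860 kb run with Irf2 (3 and 6). They were followed by chr5:150820001-151170000 (6 and 3), with Kl, the Klotho co-receptor for Fgf23, chr3:85790001-86120000 (4 and 5), with the start of Fam160a1, and chr3:37550001-38090000 (2 and 6), with Spry1, an inhibitor of receptor tyrosine kinase signalling. All 5 lacked the old mark in part, and it covered between 57.6% and 79.6% of their windows. Longer runs have more room for sites, and the 1280 kb run held 3.

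The forkhead core TGTTTAC, counted on both strands, was slightly denser in members than in other windows that gained lamin B1 and less dense than in H3K9me3 windows without lamin B1. It occurred 0.145 times per kb in members, 0.137 in windows that gained lamin B1 without the mark and 0.175 in H3K9me3 windows without lamin B1. The GATA word AGATAA had 0.615, 0.577 and 0.879 matches per kb and the GC-rich Klf word GGGCTGG 0.329, 0.375 and 0.138 in the same sets. The AT-rich words were thus rarest where GC content was highest and the GC-rich word was most frequent there. The core lay somewhere in 17.7% of the Zmpste24 KO sites in members and in 23.4% of all such sites.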

How the data were processed

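The liver samples were profiled by ChIP-Seq. Per the labels and the study's methods, the authors aligned reads to mm10, merged replicates and called lamin B1 domains with Epic, an implementation of SICER, in 10 kb windows, and Foxa2 sites with PeakSeq. The caller of the H3K9me3 regions is not given in the sources used here, and these lists hold fewer regions than the study describes. The 6 deposited lists that were used hold chromosome, start and end, with no score or signal, and read depth was not used here. The study reports more aligned H3K9me3 reads for old than for young liver, and fewer lamin B1 reads. The part of depth in the lists was not tested. H3K9me2 was not analysed here.

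Chromosomes 1 to 19 were cut into 10 kb windows on the grid of the lists, and each window was classed by the regions that hold it. X and Y held 0 windows that met the rule. GC, masked bases, CpG and words were counted in GRCm38.p6, which has the coordinates of mm10, and start sites came from GENCODE. A Foxa2 site was placed by its midpoint, and sites of both genotypes that share at least 1 base were called shared. Proportions have Wilson and densities exact Poisson intervals at 95%. Because each list is a merged call, no test between groups was made. The window and word counts were tested on made-up intervals. Tables were made with pandas 2.3.3 and numpy 2.4.6 and intervals with scipy 1.17.1 in Python 3.11.15, and figures with matplotlib 3.10.9.

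The members, gene lists and words were chosen with earlier results of these data known. Named were the 10 longest runs, the longest run with and without old H3K9me3, the 5 runs with the most Foxa2 sites, genes of the lists that start in members (for lists with over 8 such genes, those in the longest runs, with cluster members, all imprinted genes and all P450 genes added after their values were seen), and the genes with the most member windows, also chosen afterwards. Alternatives were another overlap rule, minimum lengths, a margin of 30 kb around young domains, old domains apart from young ones, runs of at least 30 kb, each run counted once, windows without unknown bases, all annotated genes, any Foxa2 overlap, a second forkhead word and, chosen after seeing the data, windows of 42 to 46% GC.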

Additional observations from a re-analysis of the deposited data

How the results depend on the processing

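The lists are merged calls without scores, so windows could be classed but replicate error could not be measured, and leaving out replicates could not be run. No paired analysis was possible because the replicates of each group are merged in the lists. Of 10 values recomputed, 52 alternative values were classed as close to the first and 22 as moved. The margin differed between values, so these counts do not measure the size of the shifts. A median distance of 320 kb against 270 kb was classed as close, and a kept share of 84.0% against 84.8% as moved. With old domains that overlap no young domain only, members numbered 3973, 8.58% of H3K9me3 windows entered lamin B1, 76.5% kept H3K9me3, the median distance to a young domain was 690 kb, Zmpste24 KO Foxa2 sites reached 4.03 per Mb and forkhead cores 0.151 per kb; this setting gives no value for domains that touch a young one. With windows within 30 kb of a young domain left out, 24.3% entered lamin B1 and 62.7% lay in domains touching a young domain. With each of the 910 runs counted once, the values were 28.2% entering, 83.4% kept, 67.7% touching, a median distance of 80 kb and 8.09 starts per Mb. Counting all annotated genes gave 21.0 starts per Mb, and adding TGTTTGC gave 0.362 forkhead words per kb. In windows of 42 to 46% GC only, a choice made after seeing the data, 6320 members remained, 62.9% of H3K9me3 windows entered lamin B1, 84.0% of members kept the mark, 63.1% lay in domains touching a young one, with 4.62 starts per Mb and 0.152 forkhead words per kb. The kept share stayed between 76.5% and 85.0% in these alternatives. The cause of these shifts was not tested.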

Other observations

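Base composition separated the called lists over all windows and not only in members. From windows under 36% GC to those of at least 52% GC, the share in young lamin B1 went from 6.49% to 41.9% and the share in old lamin B1 from 0.278% to 98.3%. Over the same bands young H3K9me3 went from 37.5% to 7.21% of windows, whereas old H3K9me3 went the other way, from 2.10% to 56.2%. The young and old H3K9me3 lists thus ran in opposite directions along GC content, while covering like totals of 576 and 617 Mb, and the old lamin B1 list covered 930 Mb against 466 Mb in young. How far this gradient comes from the animals' chromatin and how far from the libraries was not tested.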
